A study of Mus musculus with 30 samples.

Results

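The 3 RNA-seq libraries of Renca tumours were compared with the 12 libraries of 4 other mouse tumour lines that also come from BALB/c mice, out of 30 libraries of 10 lines in all. Renca is a renal carcinoma line. CT26 is a colon carcinoma line and CT26NYESO1 its derivative with the human tumour antigen NY-ESO-1. CMS5a is a fibrosarcoma line and EMT6 a mammary carcinoma line. Each line has 3 libraries. All libraries came from tumours grown under the skin and taken at a length of 10 mm, digested to single cells, and are labelled as CD45+ immune cells that had entered the tumour. The labels mention BALB/cJ and C57BL/6J hosts, and mice with or without OK-432 in the tumour for 24 hours, but tie neither to a library, so host and treatment could not be used. Every tumour type is 1 transplanted line outside its organ of origin, and nothing says that the 3 libraries of a line came from separate mice.

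Renal tubules arise from tissue patterned by a small set of transcription factors, among them Pax2, Pax8 and Sall1, and mature tubule segments are told apart by their transporters and tight junction proteins. Renca arose as a spontaneous renal cortical tumour and is used as a model of renal carcinoma. The immune cells of a tumour are commonly read through a few programmes: cytotoxic lymphocytes, which kill through granzymes and perforin and release interferon-gamma, the genes that interferons switch on in their targets, and presentation of antigen on MHC class I and class II.

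Levels were TPM, or transcript shares, which are scaled by transcript length and sum to the same total in each library, so read depth is unknown. Differences are given as log2(TPM + 1) in Renca minus the mean of the 4 lines, each line weighted equally, with the standard error of the limma fit. A gene was called where the Benjamini-Hochberg adjusted p was under 0.05 and the difference was at least 1 in either direction. The Renca libraries held 13548 to 14078 genes at 1 TPM or more, and the other 12 held 13399 to 14480. Mitochondrially encoded transcripts took 15.5% of TPM in Renca replicate 1, 27.1% in replicate 2 and 25.8% in replicate 3, against 9.17% to 22.4% in the other lines. Across genes, which are not independent, Renca replicates 2 and 3 correlated at r = 0.993, while replicate 1 correlated with them at 0.959 and 0.961. Replicate 1 stood apart from the other 2. H2-Ea, an MHC class II chain gene that C57BL/6 mice cannot transcribe, was at 405, 453 and 472 TPM in Renca and between 21.2 and 265 TPM in the 12 libraries of the compared lines, and was listed at 0 in all 15 libraries of the other 5 lines.

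Of 16345 genes tested, 2049 (12.5%) were called higher in Renca and 2523 (15.4%) lower, 28% in either direction. The median difference over all genes was -0.22. The shares of 12.5% and 15.4% are the reference for the list counts below. A gene that passed the filter through one side alone had to differ, and the number of such members is given for the lists they weigh on most. The 3 Renca libraries lay above all 12 others in 2181 genes (13.3%) and below all 12 in 2464 (15.1%). Against all 27 other libraries of the series, Renca stood above in 1268 genes (7.76%) and below in 482 (2.95%). The balance of the calls depended on the scaling: 44.8% of them were higher on TPM as deposited, and 56.8% after median-ratio scaling, which moved the median of all genes from -0.22 to -0.04. Because 1 line is set against 4, each p-value measures the spread between libraries and not the spread between renal tumours.

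Among the largest rises were 3 genes known from renal tubules. Cdh16, or kidney-specific cadherin (chromosome 8, 104601911 to 104624396, mm10), was at 367, 365 and 365 TPM in Renca, listed at 0 in 11 of the 12 other libraries and at 0.0154 TPM in the twelfth. Its difference was the largest of all 16345 genes tested (8.52 ± 0.09, limma adjusted p = 5.1e-17). Fxyd2, the gamma subunit of the sodium pump (chromosome 9, 45399669 to 45410278), was at 1088, 549 and 543 TPM in Renca and at most 3.04 TPM elsewhere (8.34 ± 0.30). Gpx3, a secreted glutathione peroxidase made by proximal tubules (chromosome 11, 54902453 to 54910377), was at 1422, 1085 and 1002 TPM against 2.11 to 12.2 TPM (7.22 ± 0.23). All 3 genes also lay above the 15 libraries of the remaining lines.

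Transcription factors of kidney development split in both directions. Of 20 listed, 13 were tested, 8 were called higher and 5 lower. The filter fixed most of these directions: 3 of the 8 reached 1 TPM in under 3 of the 12 other libraries, and all 5 lower ones were under 1 TPM in every Renca library. The values below are thus a description of the members. Pax8, which directs formation of the nephric lineage (chromosome 2, 24420560 to 24475599), was at 28.6, 48.1 and 47.8 TPM in Renca, and the highest other library reached 0.556 TPM (5.25 ± 0.14). Tfcp2l1, a factor of distal tubule and collecting duct, was at 15.3, 24.4 and 22.7 TPM against at most 0.0532 TPM (4.38 ± 0.11). Sall1, needed for ureteric bud invasion, was at 8.01, 13.65 and 11.96 TPM and was listed at 0 in all 12 other libraries. Pax2 had low levels in Renca, at 2.14, 6.29 and 5.71 TPM, and lay above the 12 others, of which none exceeded 1.46 TPM (1.82 ± 0.18). Emx2 (2.90 ± 0.14), Gata3 (3.07 ± 0.16) and Irx3 (2.14 ± 0.13) were further higher members, and Irx3 overlapped EMT6.

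The factors that were lower included genes of early kidney mesenchyme. Osr1, the earliest marker of the intermediate mesoderm that gives rise to kidney (chromosome 12, 9570116 to 9581500), was at 0.543, 0.388 and 0.666 TPM in Renca and at 33.7 to 94.9 TPM in the other lines (-5.26 ± 0.14, limma adjusted p = 4.9e-13). Irx2 (-4.26 ± 0.14), Irx1 (-3.17 ± 0.12), Osr2 (-2.72 ± 0.26) and Eya1 (-2.32 ± 0.17) were the other 4. Irx1 overlapped CMS5a, where it was near 0 as well. Lhx1, Hnf4a, Wt1 and Six2 stayed under the filter, and none of the 15 libraries held more than 0.241 TPM of any of them.

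Mature tubule genes were mostly at low levels in all 15 libraries. Of 50 genes for transporters and enzymes, 49 were in the table and 18 passed the filter, of which 8 were called higher and 3 lower, and 31 stayed under it with at most 2.05 TPM in any of the 15 libraries. Of the 18, 3 passed the filter through Renca and 3 through the other lines alone. Of the remaining 12, 5 were higher and 2 lower. Among the untested were Umod, the major protein of normal urine, which was listed at 0 in every library, Slc34a1, the proximal phosphate transporter, and the endocytic receptor Lrp2, which reached 0.797 TPM in Renca. Mme, the brush border peptidase neprilysin, was at 48.2, 112 and 110 TPM in Renca and at most 2.71 TPM in the 12 others (6.06 ± 0.23). Lcn2, a lipocalin released by injured tubules and by neutrophils, was at 101, 68.3 and 90.1 TPM against 1.90 to 13.1 TPM (3.83 ± 0.17). Aqp2, the collecting duct water channel, was at 10.7, 5.46 and 5.31 TPM and at most 0.742 TPM elsewhere. Havcr1, the kidney injury molecule, did not exceed 0.181 TPM in Renca and was not called (-0.52 ± 0.11). Aqp1, the proximal water channel that red cells and endothelium also carry, was lower than the mean of the lines (-1.68 ± 0.14), with 34.0 to 50.5 TPM in Renca against a mean of 471 TPM in CT26. CMS5a, with a mean of 33.0 TPM of Aqp1, overlapped Renca. Spp1, the abundant secreted protein osteopontin, was at 2291, 2556 and 2454 TPM and was not called (-0.81 ± 0.13). Without EMT6, 1 member was called lower in place of 3, and without CT26NYESO1 5 were.

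**Figure D1:**
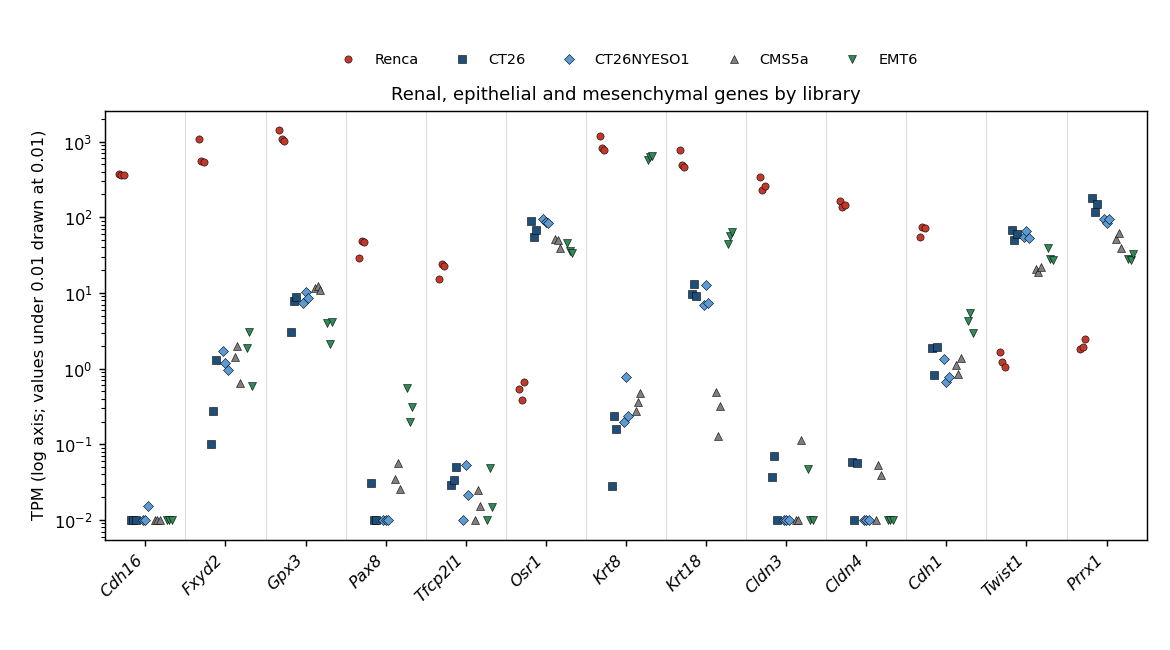
TPM on a log axis for 13 genes in the 15 libraries, one symbol per library and one colour per line, with values under 0.01 drawn at 0.01. Renca (red) lies above every other library for Cdh16, Fxyd2, Gpx3, Pax8, Tfcp2l1, Krt8, Krt18, Cldn3, Cldn4 and Cdh1, and below every other library for Osr1, Twist1 and Prrx1; EMT6 (green) is the nearest line for Krt8 and Krt18.

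Many keratins and junction genes were higher. Of 31 tested members of 44, 20 were called higher and 3 lower. Of these 31, 7 passed the filter through Renca and 6 through the other lines alone, and among the remaining 18 there were 13 higher and 1 lower. Cldn3 (342, 231 and 256 TPM) and Cldn4 (163, 135 and 145 TPM), claudins that seal tight junctions and lie near each other on chromosome 5, did not exceed 0.115 TPM in the 12 others (8.07 ± 0.11 and 7.19 ± 0.09). Krt8 and its partner Krt18, keratins of simple epithelia, were at 1179, 820 and 781 TPM and at 778, 491 and 458 TPM. EMT6, the nearest line for both genes, reached 640 TPM of Krt8 and 64.8 TPM of Krt18, and the Renca libraries lay above both values. Cdh1, or E-cadherin, was at 55.3, 73.5 and 73.0 TPM against 0.661 to 5.46 TPM (4.66 ± 0.19). Krt19 was at 0.302 to 1.78 TPM and was not called, and Epcam stood at 9.75, 10.0 and 10.2 TPM (2.91 ± 0.09). The 3 lower members were Cldn6, Krt20 and Cldn12. Cldn6 averaged 129 TPM in CT26NYESO1 and Krt20 124 TPM in CT26, and Krt20 lost its call without CT26 (-0.32). Without CMS5a, 6 members were called lower, and without CT26 or CT26NYESO1 5 were. Ptprc, the gene for the CD45 named in the labels, was at 9.28, 29.9 and 28.1 TPM in the same Renca libraries, and thus far below Krt8 and Cldn3 on the TPM scale, which is per length. This was not particular to Renca: EMT6 held 35.4 to 69.2 TPM of Ptprc and a mean of 610 TPM of Krt8. The labels describe digestion but no sorting step.

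Mesenchymal genes moved in both directions. Of 40 tested, 8 were higher and 16 lower, with a median of -0.20, close to that of all genes. Regulators of the mesenchymal state were among the lower ones: Prrx1 was at 1.83, 1.94 and 2.46 TPM against 27.1 to 181 TPM (-4.46 ± 0.14), and Twist1 at 1.66, 1.23 and 1.05 TPM against 19.0 to 67.7 TPM (-4.10 ± 0.13). Pdgfra, a receptor that marks fibroblasts, was at 1.35, 2.02 and 2.78 TPM and at least 13.8 TPM elsewhere (-3.86 ± 0.17). Cdh2, or N-cadherin, was also lower (-3.49 ± 0.12), although EMT6 lacked it too. In contrast, Col12a1 (3.26 ± 0.23), Tagln (3.07 ± 0.19) and Postn (2.99 ± 0.37) were higher. Postn, a matrix protein of activated fibroblasts, was at 43.1, 70.1 and 83.3 TPM against 2.22 to 13.7 TPM. Col1a1 was not called (0.86 ± 0.28) but was without Renca replicate 1 (1.24), without CMS5a (1.27), without EMT6 (1.16) or after median-ratio scaling (1.08), while Col1a2, which encodes the other chain of the same collagen, was lower in Renca (119, 235 and 273 TPM) than in all 12 others (415 TPM or more). Col3a1, a fibrillar collagen of the same cells, was also lower (-1.37 ± 0.23), at 106, 211 and 257 TPM, within the range of the CT26 lines, and lost its call without CMS5a (-0.55) or without Renca replicate 1 (-0.99). Without CMS5a, 14 members were called higher in place of 8, and after subtraction of the leukocyte mean defined below 16 were.

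Basement membrane genes and integrins gave 9 higher and 5 lower of 22 tested. Of these 22, 1 passed the filter through Renca and 4 through the other lines alone. Of the remaining 17, 8 were higher and 3 lower. Agrn, a heparan sulphate proteoglycan of the glomerular basement membrane, was at 164, 137 and 140 TPM against 14.8 to 59.7 TPM (2.61 ± 0.13). Col4a5, a type IV collagen chain whose loss causes Alport nephritis, was at 0.0327, 0.199 and 0.221 TPM, just under the lowest other library at 0.223 TPM, and far below the mean of 34.5 TPM in CT26. Lamb1 was lower as well (-2.70 ± 0.13). Without EMT6, 6 members were called higher in place of 9.

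Further genes were among the 15 largest rises. Folr1, the folate receptor that kidney tubules use to reclaim folate (chromosome 7, 101858331 to 101870788), was at 326, 281 and 272 TPM and at most 1.31 TPM elsewhere (7.77 ± 0.10). S100g, a calcium-binding protein of distal tubule and intestine, was at 307, 160 and 145 TPM and at most 0.280 TPM elsewhere (7.53 ± 0.18). Wfdc2, a secreted protease inhibitor, was at 2048, 1077 and 1102 TPM. It was near 0 in CT26, CT26NYESO1 and CMS5a but reached 349 TPM in EMT6, so its difference of 8.26 rested on the other 3 lines more than on EMT6. Agt, or angiotensinogen, the precursor of angiotensin, was at 325, 237 and 209 TPM, with up to 15.2 TPM in CT26 (6.50 ± 0.29). Fbln1 (7.06 ± 0.15), Chchd10 (6.55 ± 0.21) and Chrdl2 (6.31 ± 0.09) were further members of the 15 largest. Serpinb9d, a member of a mouse serpin family that inhibits granzyme B in its founding member Serpinb9, was at 178, 299 and 239 TPM and at most 0.146 TPM elsewhere. Serpinb9d passed the filter through Renca alone, which fixed its direction. All 8 tested genes of that family were called higher, but how many others passed the filter in this way was not counted. The copies are near-identical and their levels may be split between them. Serpinb9 itself lost its call without CT26NYESO1 (0.84) and without Renca replicate 3 (0.997). The same held with CT26 and CT26NYESO1 counted as 1 family (0.94).

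The largest negative difference was that of Hmga2. Hmga2, an embryonic chromatin protein (chromosome 10, 120361275 to 120476469), was at 0.0550, 0.348 and 0.157 TPM in Renca and at 37.0 to 284 TPM in the 12 others (-6.80 ± 0.13). It was also below the lowest of the remaining 15 libraries, which held 5.29 TPM. Sema3a, a repulsive guidance cue (-6.50 ± 0.17), Cavin2, a caveolar coat protein (-6.23 ± 0.15), Ogn, a matrix proteoglycan (-5.76 ± 0.18), Mir100hg, a non-coding RNA locus that hosts microRNAs (-5.52 ± 0.42), Prkg2 (-5.50 ± 0.15) and Sdc2, a cell surface heparan sulphate proteoglycan (-5.28 ± 0.14), were also among the 10 largest falls, and each lay below all 12 libraries. Ltbp1, which stores latent TGF-beta in the matrix, was at 0.465, 1.48 and 0.942 TPM against 23.5 TPM or more (-5.30 ± 0.15).

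Hox genes, which record the position of a cell along the body axis, were higher in Renca in 19 of 31 tested and lower in 1, and among the 26 that passed the filter through both sides in 17 and 1. Calls were most frequent toward the 5′ ends: 9 of 11 tested genes of paralog groups 9 to 13 were higher and none lower, against 10 higher and 1 lower of 20 in groups 1 to 8. All 5 tested Hoxd genes were higher. Hoxd10 (chromosome 2, 74691924 to 74695105) was at 22.39, 27.70 and 22.03 TPM and at most 0.359 TPM elsewhere (4.53 ± 0.10). Hoxd11, which with Hoxa11 patterns the kidney, was at 7.25, 5.40 and 6.87 TPM and at most 0.0962 TPM elsewhere (2.88 ± 0.08). Hoxa11 itself was at 19.59, 23.04 and 23.84 TPM, and only CMS5a carried it among the others, at a mean of 12.2 TPM. Hoxd9 (4.54 ± 0.11), Hoxb7 (4.003 ± 0.15) and Hoxb9 (3.90 ± 0.12) showed the same order, with Renca first, CMS5a second and the 2 CT26 lines and EMT6 under 1 TPM on average. Hoxa6 was the 1 lower gene (-1.02 ± 0.27), and it lost its call without Renca replicate 1 (-0.65), after median-ratio scaling (-0.93) and in several other alternatives.

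**Figure D2:**
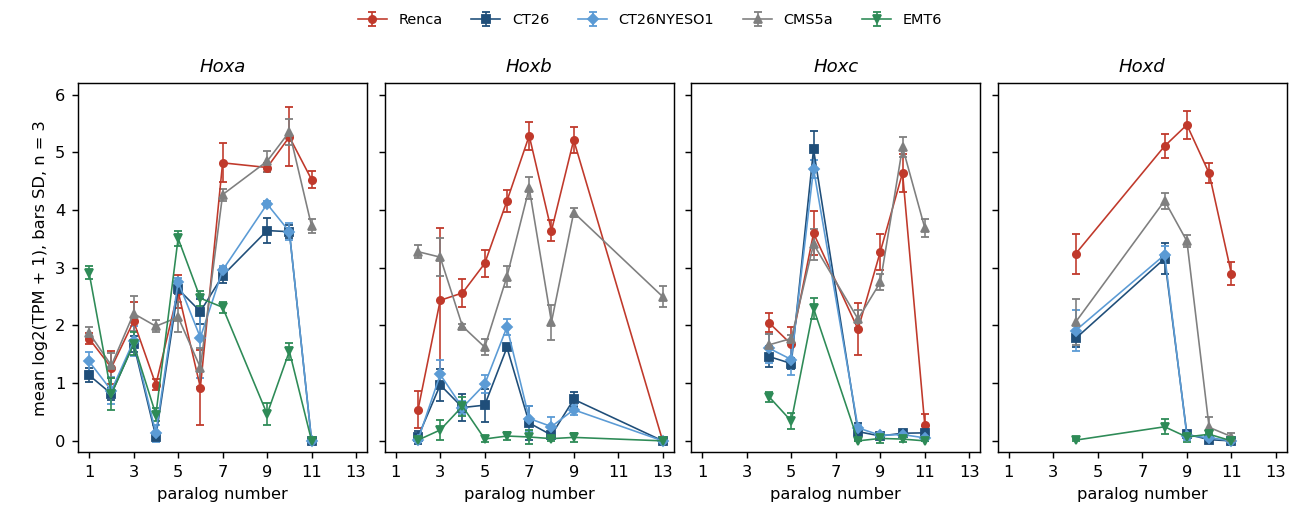
Mean log2(TPM + 1) of each tested Hox gene against its paralog number, in 4 panels for the 4 clusters, with bars for the SD over 3 libraries; the connecting lines join tested genes only. Renca (red) is highest for Hoxb4 to Hoxb9 and for all 5 Hoxd genes, and CMS5a (grey) is nearest to it over most of these.

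Growth control genes set Renca apart at the Cdkn2 locus. Cdkn2a, which encodes the p16 and p19Arf tumour suppressors (chromosome 4, 89274471 to 89294653), was at 320, 243 and 259 TPM in Renca. The 2 CT26 lines held under 1 TPM, EMT6 averaged 12.1 TPM and CMS5a 107 TPM (5.27 ± 0.17). Its neighbour Cdkn2b was at 27.7, 22.2 and 22.3 TPM and at most 12.9 TPM elsewhere (3.29 ± 0.13). Trp53 was lower, at 38.0, 37.9 and 42.9 TPM against 97.6 to 163 TPM (-1.62 ± 0.11), and so was the p53 target Bax, which promotes apoptosis (-1.56 ± 0.16). Over the 18 tested genes of this list, 3 were higher and 3 lower, beside 12.5% and 15.4% of all genes. Without CT26, 5 were higher, and without CMS5a 5 were lower.

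Cell cycle genes leaned lower, though most were not called. Their median was -0.67 beside -0.22 over all genes, and 19 of the 24 differences were negative. In all, 9 lay below all 12 libraries, beside 15.1% of all genes. Of 24, 6 were called lower and none higher, beside 15.4% of all genes called lower, and without Renca replicate 1 or after median-ratio scaling 2 were, and 3 without CT26. The 2 were the D-type cyclins Ccnd2 (1.169, 2.097 and 2.346 TPM against 4.62 to 78.5 TPM, -3.59 ± 0.18) and Ccnd1 (41.7, 47.5 and 68.9 TPM against 72.8 to 648 TPM, -2.43 ± 0.14), which carry growth factor signals to the cell cycle. Pcna, the replication clamp, was at 369, 415 and 410 TPM and was not called (0.49 ± 0.09).

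Enzymes of glutathione metabolism and the pentose phosphate pathway were higher in 9 of 25 tested and lower in 1. EMT6 was not below Renca over the list as a whole. The mean log2(TPM + 1) of the list was 6.01 to 6.11 in Renca and 6.10 to 6.27 in EMT6. It was 4.50 to 5.33 in CT26, CT26NYESO1 and CMS5a. Gsta3 was at 63.6, 59.3 and 42.4 TPM and at most 0.438 TPM elsewhere (5.69 ± 0.14). Gsta1 (4.35 ± 0.26) and Gsta2 (3.59 ± 0.14), close copies of each other that share reads, were also higher, and Gsta4 was lower (-1.33 ± 0.10), a call that was lost without EMT6 (-0.66). Tkt, the transketolase of the pentose phosphate pathway, was at 1007, 793 and 743 TPM against 117 to 335 TPM (2.29 ± 0.10).

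Among growth factors and their receptors, 4 were higher and 10 lower of 23 tested. Of these 23, 1 passed the filter through Renca and 7 through the other lines alone. Of the remaining 15, 3 were higher and 4 lower. Mst1r, the receptor tyrosine kinase RON of epithelia, was at 5.11, 11.1 and 10.3 TPM and at most 0.652 TPM elsewhere (3.07 ± 0.17), while its relative Met was lower, at 8.64, 12.4 and 13.7 TPM against 28.1 TPM or more (-1.75 ± 0.14). Pdgfb, a ligand of pericyte receptors, was at 51.7, 44.8 and 52.3 TPM against at most 14.3 TPM (2.93 ± 0.16). Ereg, a ligand of the EGF receptor, did not exceed 0.0186 TPM in Renca (-3.94 ± 0.15), and Fgf7, a fibroblast factor for epithelia, was lower too (-3.73 ± 0.17). In the TGF-beta, BMP and Wnt list 7 were higher and 5 lower of 22. Of these 22, 1 passed the filter through Renca and 5 through the other lines alone. Of the remaining 16, 6 were higher and 2 lower. Gdf15, a stress-induced member of the family, was at 119, 104 and 102 TPM in Renca and at most 11.3 TPM elsewhere (5.72 ± 0.17). The antagonists Grem1 (-3.70 ± 0.15) and Dkk2 (-3.26 ± 0.14) were lower, each overlapping EMT6, where both were near 0. Without CMS5a, 8 of this list were lower.

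Hypoxia and glycolysis genes did not move together. Of 27 tested, 6 were higher and 3 lower, beside 12.5% and 15.4% of all genes, with a median of 0.12. Without CMS5a 7 were lower. Ndrg1, a hypoxia-responsive gene, was at 1094, 1162 and 1174 TPM against 42.1 to 749 TPM (2.71 ± 0.25). Car9, the carbonic anhydrase used as a marker of clear cell renal carcinoma, was at 1.14, 1.39 and 1.45 TPM, below all 12 others, which ranged from 2.18 TPM in CMS5a to 77.0 TPM in EMT6 (-2.99 ± 0.35). Car12, a related enzyme, was higher (2.25 ± 0.31) at 17.9, 49.9 and 58.1 TPM, within the range set by EMT6. Ldha, an abundant glycolytic enzyme, was not called (-0.27 ± 0.16).

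**Figure D3:**
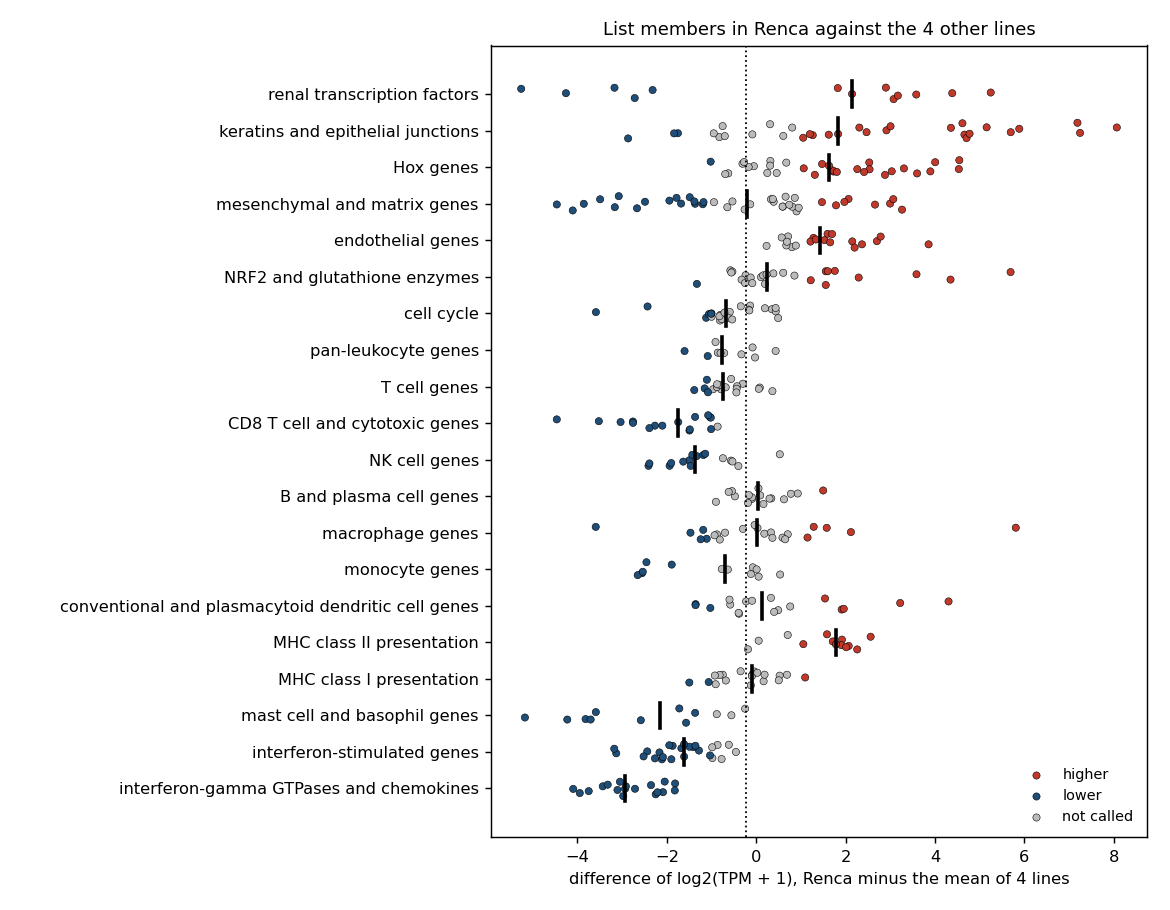
Each point is 1 tested member of 20 gene lists, placed by its difference of log2(TPM + 1) between Renca and the mean of the 4 lines; red marks members called higher, blue lower, grey not called, the bar the list median and the dotted line the median of all genes (-0.22); members that passed the filter through one side alone are included. Members of the interferon-gamma list all lie left of the line and are all called lower, while 10 of the 13 MHC class II members are called higher.

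Leukocyte transcripts overlapped between Renca and the other lines. The mean log2(TPM + 1) over 10 genes expressed by most leukocytes was 5.02, 5.39 and 5.55 in Renca and 5.33 to 6.58 in the other lines, a difference of -0.60 beside a median of -0.22 over all genes. Arhgdib (-1.60 ± 0.10) and Ptprc (-1.08 ± 0.31) were called lower, 2 of 10 beside 15.4% of all genes. Ptprc lost its call without Renca replicate 1 (-0.57), which held 9.28 TPM, and after median-ratio scaling (-0.88). Without CT26NYESO1, 4 of the 10 were called lower, and without Renca replicate 3 5 were. The other 8 genes were not called: Laptm5 (0.43), Cd52 (-0.03), Coro1a (-0.08), Fermt3 (-0.33), Ikzf1 (-0.72), Was (-0.80), Lcp1 (-0.86) and Cd53 (-0.91). In bulk RNA, fewer cells of a type and less RNA per cell cannot be told apart, and this holds for every immune gene described here. Renca replicates 2 and 3 had the highest mitochondrial shares of the 15 libraries, and replicate 1, with the lowest Ptprc, had 15.5%. With mitochondrial and haemoglobin genes removed, Ptprc stood at -0.97 and was not called. The part that the epithelial transcripts have in the immune values was not tested.

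Cytotoxic genes were low in Renca. Of 17 genes of CD8 T cells and cytotoxic function, 16 were called lower and none higher. Of these 17, 10 were under 1 TPM in every Renca library and passed the filter through the other lines, and the remaining 7 were all called lower. Gzmb, which encodes granzyme B (chromosome 14, 56258838 to 56262260), was at 0.216, 0.310 and 0.546 TPM in Renca. The other lines ranged from 7.87 TPM in CMS5a to 178 TPM in CT26, so the groups did not overlap (-4.46 ± 0.32, limma adjusted p = 1.8e-08). Gzmc (-3.52 ± 0.25) and Prf1, the pore protein perforin (0.291, 0.748 and 0.761 TPM against 1.72 to 69.9 TPM, -3.03 ± 0.36), also lay below all 12. Gzmf and Gzmg were listed at 0 in all 3 Renca libraries, though also in part of the others, and granzymes C to G are near-identical copies whose reads may be shared. Cd8a itself was at 0.764, 0.736 and 0.625 TPM and overlapped the other lines (-1.49 ± 0.40). Its call was lost without CT26NYESO1 (-1.06).

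General T cell genes differed less. Of 18 tested, 4 were lower, beside 15.4% of all genes, among them Trbc1, Cd3g and Trbc2. The median was -0.74, and none lay below all 12 libraries. Without CT26NYESO1, Cd3g (-0.76) and Trbc2 (-0.74) were no longer called, and 1 of the 18 was lower. Cd3e was at 0.892, 2.13 and 1.83 TPM, inside the range of 0.123 to 14.9 TPM set by the others, and Cd4 at 3.03, 3.39 and 4.54 TPM (0.36 ± 0.20). Of 16 tested NK cell genes 11 were lower, of which 5 passed the filter through both sides, among them Il2rb, an interleukin-2 receptor chain, at 1.03, 2.08 and 2.30 TPM against 2.93 to 43.5 TPM (-2.41 ± 0.32), and Ncr1, the NK receptor NKp46 (-2.39 ± 0.27). Tigit, an inhibitory receptor of T and NK cells, was at 0.0557, 0.339 and 0.438 TPM against 2.36 to 22.7 TPM (-3.05 ± 0.19), while Foxp3, which defines regulatory T cells, was not called (-0.41 ± 0.17) and neither was Cd274, which encodes PD-L1 (0.11 ± 0.40). Of 16 tested regulatory T cell and checkpoint genes, Tigit among them, 4 were lower. None of the 10 that passed the filter through both sides was called. B cell and plasma cell genes did not differ as a list (1 of 17 higher, median 0.05). The 1 gene was Pax5, which fixes B cell identity, at 1.17, 3.56 and 3.82 TPM. Pax5 passed the filter through Renca alone, which fixed its direction, and none of the 10 members that passed through both sides was called. Without CMS5a 4 members were called higher, and without Renca replicate 3 3 were.

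When each library's leukocyte mean was subtracted, an alternative chosen after seeing the data, 9 of 17 cytotoxic genes, 5 of 16 NK genes and none of 18 T cell genes were called lower. With the same mean as a covariate the numbers were 6, 3 and 0. The mean log2(TPM + 1) of the cytotoxic list was 0.915 to 0.927 in Renca, and the lowest value outside Renca was 1.49, in EMT6 replicate 1.

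Interferon target genes were lower in Renca. All 18 genes of the interferon-gamma list, which holds GTPases of intracellular defence, chemokines and their regulators, were called lower, with differences from -1.81 to -4.09 and a median of -2.92, and 14 lay below all 12 libraries. Of these 18, 2 were under 1 TPM in every Renca library. Gbp2, a guanylate-binding protein (chromosome 3, 142620602 to 142638008), was at 8.31, 15.3 and 17.7 TPM in Renca and between 74.3 and 596 TPM in the others (-3.95 ± 0.42, limma adjusted p = 1.4e-06). Gbp4 was at 1.03, 2.60 and 2.66 TPM against 9.78 to 249.1 TPM (-4.09 ± 0.59), and Gbp3 at 4.56, 7.94 and 8.48 TPM against 38.9 to 235 TPM (-3.75 ± 0.42). Cxcl10, a chemokine that attracts T cells, was at 4.24, 4.95 and 7.21 TPM against 22.01 to 146 TPM (-3.43 ± 0.34). Irf1, the transcription factor that carries much of the response, was at 22.7, 36.4 and 34.8 TPM against 69.6 to 277 TPM (-2.09 ± 0.29). Renca was lowest for each of these 5 genes, with no overlap. Ifng itself was near the limit of detection, at 0.261, 0.280 and 0.0989 TPM against at most 4.18 TPM (-1.07 ± 0.35), and its call was lost with the leukocyte mean as a covariate (-0.33) and when several single lines or libraries were left out, among them CT26NYESO1 (-0.90), CT26 (-0.96) and Renca replicate 3 (-1.01).

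Of 25 genes induced by interferons in general, 19 were lower, none higher, and 20 lay below all 12, with a median of -1.61. Oasl2 (4.44, 10.3 and 10.9 TPM against 32.3 to 161 TPM, -3.18 ± 0.35), Ifit1 (-3.13 ± 0.23), Zbp1 (-2.52 ± 0.36) and Ifi44 (-2.44 ± 0.24) differed most. Isg15, an abundant ubiquitin-like protein, was at 143, 109 and 116 TPM and was not called (-0.45 ± 0.19). With the leukocyte mean subtracted, all 18 genes of the interferon-gamma list and 14 of these 25 were called lower. With that mean as a covariate 9 and 11 were.

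Promoters of 4 of these genes are shown because the genes moved together, beside those of 2 MHC class II genes that moved the other way. The sequences are the 120 bases before the start, from RefSeq promoter windows on GRCm38 (mm10), read 5′ to 3′ on the gene's strand. The start is that of RefSeq and can differ from the GENCODE coordinates given for genes. The Gbp2 sequence runs past the GENCODE start at 142620602. The Irgm1 sequence lies wholly downstream of the GENCODE start at 48871683. Capitals mark matches on either strand to the interferon-stimulated response element, searched as GAAA, any 2 bases and GAAA again, and to the gamma-activated site, searched as TTCNNNGAA, in the interferon genes, and to the Y box letters CTGATTGG in the class II genes.
Gbp2 (chr3:142620543-142620662, + strand): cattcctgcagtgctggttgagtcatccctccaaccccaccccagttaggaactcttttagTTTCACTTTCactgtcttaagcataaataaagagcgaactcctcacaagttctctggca
Igtp (chr11:58199436-58199555, + strand): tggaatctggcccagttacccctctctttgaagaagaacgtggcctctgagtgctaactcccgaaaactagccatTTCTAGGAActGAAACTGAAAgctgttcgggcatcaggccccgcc
Irgm1 (chr11:48871421-48871540, - strand): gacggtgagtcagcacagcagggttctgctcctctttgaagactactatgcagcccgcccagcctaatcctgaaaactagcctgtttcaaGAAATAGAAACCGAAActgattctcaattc
Irf1 (chr11:53769894-53770013, + strand): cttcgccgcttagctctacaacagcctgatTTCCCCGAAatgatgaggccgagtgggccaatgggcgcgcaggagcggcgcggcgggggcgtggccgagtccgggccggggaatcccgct
H2-Aa (chr17:34287824-34287943, - strand): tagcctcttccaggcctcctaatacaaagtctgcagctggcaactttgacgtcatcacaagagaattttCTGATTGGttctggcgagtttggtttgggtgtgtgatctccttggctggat
H2-Eb1 (chr17:34305747-34305866, + strand): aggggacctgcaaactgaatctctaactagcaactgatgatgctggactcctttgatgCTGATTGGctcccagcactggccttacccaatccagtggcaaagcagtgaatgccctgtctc
In Igtp the gamma-activated site begins 45 bases and the response element 34 bases before the start, without overlap, and in Irgm1 a pair of overlapping response elements begins 30 bases before it. Over windows of 250 bases before the start, the response element letters were in 11 of 13 genes of the interferon-gamma list with an entry, in 8 of 16 of the general list, and in 3.46% of all 27025 genes with an entry. The gamma-activated site was in 7 of the same 13 and in 8.13% of all genes. The Y box letters were in 3 of 9 class II genes, in 5 of 16 class I genes and in 4.43% of all genes. These are matches of letters and do not show binding.

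MHC class II genes were higher in Renca, opposite to the interferon targets. Of 13 tested, 10 were called higher and none lower, with a median of 1.78, and 9 lay above all 12 libraries. Cd74, the invariant chain that guides class II molecules, was at 1780, 1241 and 1205 TPM in Renca and between 47.7 and 579 TPM elsewhere (2.26 ± 0.56, limma adjusted p = 0.0026). H2-Ab1 (chromosome 17, 34257689 to 34269419) was at 898, 660 and 680 TPM against 34.9 to 362 TPM (2.07 ± 0.54), and H2-Oa, a modifier of peptide loading found mostly in B cells and dendritic cells, at 10.7, 8.69 and 9.29 TPM against 0.169 to 1.38 TPM (2.56 ± 0.14). Each Renca library stood above the highest of the 12 for all 3 of these genes. Ciita, the coactivator that switches these genes on, was at 2.92, 8.28 and 8.45 TPM and was not called (0.70 ± 0.42). The class II values of EMT6 were low in replicate 1 only, which held 47.7 TPM of Cd74 against 579 and 508 TPM in the other 2.

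MHC class I genes did not differ as a list. Of 19 tested, 1 was higher and 2 lower, with a median of -0.10. H2-D1, a classical class I heavy chain, was at 3577, 3010 and 3510 TPM against 618 to 2578 TPM (1.09 ± 0.17), and lost its call without CMS5a (0.70), which held the lowest values. Psmb10 (-1.496 ± 0.25) and Psme1 (-1.06 ± 0.18), parts of the immunoproteasome and its activator, were lower, the second no longer after median-ratio scaling (-0.85), while Tap1 (-0.10 ± 0.31), a peptide transporter and interferon target, was not called. B2m, the light chain, was at 3231, 3436 and 4060 TPM (-0.35 ± 0.15). Subtracting the leukocyte mean gave 4 higher and 0 lower.

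**Figure D4:**
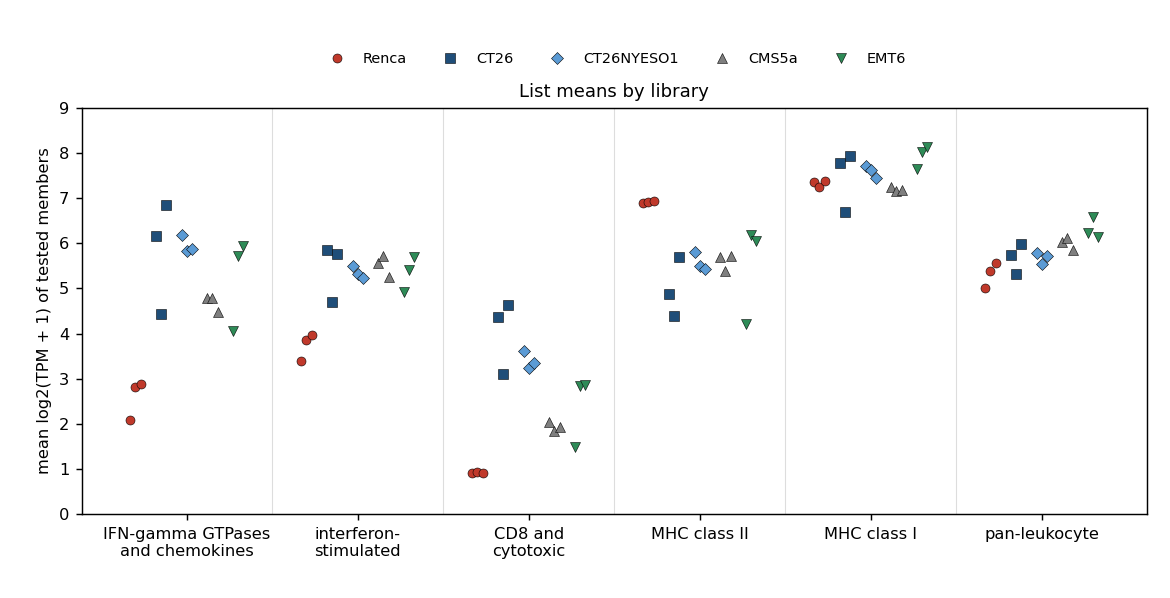
Mean log2(TPM + 1) over the tested members of 6 gene lists, one symbol per library and one colour per line. Renca (red) lies below all 12 libraries for the interferon-gamma, interferon-stimulated and cytotoxic lists and above all 12 for MHC class II, and overlaps them for MHC class I and the pan-leukocyte genes.

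Macrophage genes were even in number, 5 higher and 5 lower of 23 tested. Gpnmb, a glycoprotein of lysosome-rich macrophages that melanocytes and some tumour cells also make (chromosome 6, 49036546 to 49070929), was at 636, 929 and 1033 TPM against 3.75 to 46.3 TPM (5.81 ± 0.25). Cd68, a lysosomal membrane protein, was at 380, 480 and 462 TPM against 48.7 to 223 TPM (2.12 ± 0.21). Lineage genes of macrophages did not follow: Csf1r was at 81.4, 103 and 133 TPM (0.59 ± 0.21), and Adgre1, which encodes F4/80, was not called either (-0.30 ± 0.24). Vcam1, an adhesion molecule of macrophages, endothelium and stroma, was lower, at 5.94, 8.12 and 8.84 TPM against 31.0 to 204 TPM (-3.59 ± 0.13). Without CT26NYESO1 8 were lower, and subtracting the leukocyte mean gave 8 higher and 1 lower.

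Monocyte and neutrophil genes were lower in part. Of 12 monocyte genes 5 were lower and none higher. Ly6c2, which marks inflammatory monocytes, was at 6.51, 7.52 and 11.9 TPM against 27.8 to 97.0 TPM (-2.55 ± 0.29), whereas Ccr2, the receptor that recruits these cells, was at 27.6, 53.1 and 58.4 TPM and was not called (0.05 ± 0.25). Of 14 neutrophil genes 6 were lower, but only 1 was without EMT6, the line with the highest neutrophil genes. That gene was Acod1, which makes itaconate, at 0.191, 0.251 and 0.703 TPM against 2.096 to 57.97 TPM (-2.99 ± 0.38). Acod1 passed the filter through the other lines alone, which fixed its direction. Of the 14 neutrophil genes, 3 passed in this way, and of the remaining 11, 5 were lower.

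Some genes of the conventional dendritic cells that display class II were higher. Mgl2, a lectin of the type 2 subset and of some macrophages, was at 68.3, 116 and 107 TPM in Renca and at most 8.81 TPM elsewhere (4.30 ± 0.22), and Sirpa, an inhibitory receptor of myeloid cells, at 450, 455 and 508 TPM against 24.5 to 109 TPM (3.22 ± 0.19). Itgax, which encodes CD11c, was at 14.6, 29.3 and 27.7 TPM against 1.85 to 11.6 TPM (1.96 ± 0.33). In all, 5 of 18 dendritic cell genes were higher and 3 lower, the lower ones being Siglech, Ccr9 and Tcf4, which plasmacytoid dendritic cells carry. The other 10 were not called, and 9 of the 18 differences were negative, with a median of 0.12 beside -0.22 over all genes. The mean log2(TPM + 1) of the list was 2.83 to 3.19 in Renca and overlapped CMS5a, at 2.83 to 3.12. Siglech (-0.996) and Ccr9 (-0.82) were no longer called without CMS5a. Xcr1, which defines the cross-presenting subset, stayed under the filter. Of 15 genes of mature dendritic cells 4 were higher, among them the chemokine Ccl17 (52.6, 26.6 and 26.9 TPM against at most 6.61 TPM, 3.55 ± 0.24) and the costimulatory receptor Cd40 (26.6, 22.4 and 24.5 TPM against at most 6.18 TPM, 2.49 ± 0.26). Fscn1 (-1.95 ± 0.11) and Cd80 (-1.55 ± 0.15), which mature dendritic cells also raise, were lower.

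Complement genes were higher in 6 of 19 tested and lower in 1, and without Renca replicate 1 none was lower. C2 was at 78.1, 109 and 113 TPM against 1.10 to 10.5 TPM (4.66 ± 0.15), and C3, the central component, at 164, 230 and 258 TPM against 7.04 to 57.1 TPM (3.16 ± 0.30). Cd59a, which blocks the final pore of complement on the cell surface, was at 31.7, 32.0 and 30.5 TPM and at most 2.997 TPM elsewhere (3.79 ± 0.13). Without CMS5a 3 were called higher, and after subtraction of the leukocyte mean 11 were. C1qa, a macrophage product, was not called (0.70 ± 0.21).

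Mast cell transcripts were close to 0 in Renca. Of 12 tested genes of mast cells and basophils, 9 were lower and none higher. Of these 12, 10 were under 1 TPM in every Renca library and passed the filter through the other lines, which fixed their direction. Of the remaining 2, 1 was called lower. Tpsab1, a mast cell tryptase (chromosome 17, 25343245 to 25345562), was at 0.283 and 0.144 TPM in Renca replicates 1 and 2 and listed at 0 in replicate 3, against 4.47 to 178 TPM elsewhere (-5.17 ± 0.65, limma adjusted p = 8e-06). The chymase Cma1 was at 0.193, 0.196 and 0.129 TPM against 1.26 to 63.5 TPM (-3.82 ± 0.57), and Tpsb2, a close copy of Tpsab1, was lower as well (-4.23 ± 0.60). After subtraction of the leukocyte mean 7 were called lower. Kitl, the stem cell factor that mast cells depend on, was at 0.512, 0.956 and 1.61 TPM in Renca and at 4.63 to 31.5 TPM elsewhere (-2.99 ± 0.21). Il1rl1, the interleukin-33 receptor that mast cells and some regulatory T cells carry, was at 6.86, 11.9 and 14.4 TPM against 84.5 to 573 TPM (-4.39 ± 0.20), and its ligand Il33 was lower too (-1.97 ± 0.20). Il1rl1 and Il33 belong to the list of type 2 cytokines and eosinophil attractants, which did not differ as a whole. Of its 18 tested genes 1 was higher, 4 were lower and 13 were not called. The median was -0.0086 beside -0.22 over all genes, and 12.5% and 15.4% of all genes were called higher and lower.

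Eosinophil markers were at or near 0. Of 12 genes 9 stayed under the filter, and Epx and Prg2, the granule proteins that define eosinophils, were listed at 0 in all 3 Renca libraries. Siglecf was at 0.385, 0.549 and 0.517 TPM and Il5ra at most 0.189 TPM, and Ccr3, the eotaxin receptor, was at most 0.336 TPM and was not called (-0.38 ± 0.22). Ear2, an eosinophil-associated ribonuclease that macrophages and monocytes also make, was at 35.4, 52.8 and 44.7 TPM in Renca against 0.670 to 5.59 TPM (3.87 ± 0.21). Its family holds close copies, so the level of this 1 member is uncertain.

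Of 25 tested myeloid growth factors and suppressive mediators, 1 was higher and 7 lower, with 17 not called. Of these 25, 5 passed the filter through the other lines alone, and of the remaining 20, 1 was higher and 5 lower. Without Renca replicate 1, 3 were higher, and without Renca replicate 2 none was. Prostaglandin genes of this list are described with Ptger3, a receptor gene among the 15 largest rises. Ptgs2, the inducible cyclooxygenase COX-2 (chromosome 1, 150100031 to 150108227), was at 0.312, 0.421 and 0.781 TPM in Renca and at 18.7 to 411 TPM in the 12 others (-5.60 ± 0.22, limma adjusted p = 2.1e-11). Ptges, which makes prostaglandin E2 from its product, was at 2.41, 4.33 and 3.09 TPM against 33.8 to 176 TPM (-4.44 ± 0.13). Ptgs1, the constitutive cyclooxygenase, was in contrast higher than the mean of the lines (1.05 ± 0.14) at 117, 144 and 142 TPM, overlapping CT26, and lost its call without CMS5a (0.69). The prostaglandin E2 receptor gene Ptger3 (chromosome 3, 157566892 to 157645888), which the distal nephron expresses, was at 191, 198 and 208 TPM in Renca and at most 0.279 TPM in any of the 12 others (7.51 ± 0.10). Arg1, an enzyme of suppressive myeloid cells, was lower (1.37, 5.05 and 7.49 TPM, -3.82 ± 0.37) but overlapped CMS5a.

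**Figure D5:**
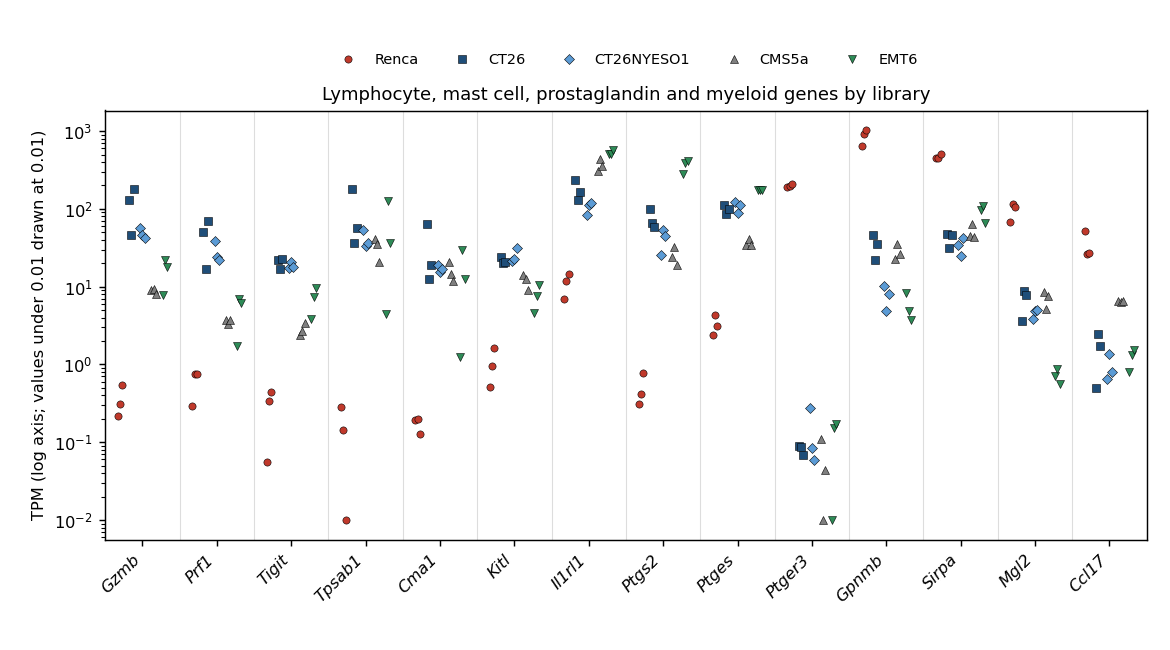
TPM on a log axis for 14 genes in the 15 libraries, one symbol per library and one colour per line, with values under 0.01 drawn at 0.01. Renca (red) lies below every other library for Gzmb, Prf1, Tigit, Tpsab1, Cma1, Kitl, Il1rl1, Ptgs2 and Ptges, and above every other library for Ptger3, Gpnmb, Sirpa, Mgl2 and Ccl17.

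Endothelial genes were higher in 13 of 20 and lower in none, with a median of 1.43. All 20 differences were positive. Esam, an endothelial adhesion molecule, was at 66.8, 55.2 and 60.2 TPM against 0.493 to 22.2 TPM (3.86 ± 0.25), and Plvap, which forms the diaphragms of fenestrated vessels, at 56.3, 41.1 and 53.8 TPM against 1.499 to 40.55 TPM (2.78 ± 0.22). Most of the list overlapped CMS5a: Cdh5, the cadherin of endothelial junctions, averaged 42.04 TPM there against 11.4, 17.3 and 24.1 TPM in Renca, and under 4 TPM in the other 3 lines. Pecam1, or CD31, was at 18.9, 23.5 and 34.8 TPM (1.28 ± 0.19; 0.99 and no longer called without EMT6), and Kdr, a receptor for vascular growth factor, was not called (0.71 ± 0.19). In all, 4 of the 20 genes lay above all 12 libraries.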

How the data were processed

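RNA from digested tumours was extracted with TRIzol and made into libraries with a stranded TruSeq mRNA kit, per the labels' protocols. The submitters' processing notes list Trim Galore 0.6.5, STAR 2.7.3a, StringTie 2.1.2 and mm10. The deposited values are TPM (transcript shares corrected for length) per gene, as the authors made them, so the read depth behind a value is unknown. For the counting, annotation and strand setting are not given in the sources used here. Levels of overlapping genes or near-identical copies (granzymes C to G, Klra, Gbp and Tgtp, Tpsab1 and Tpsb2, Gsta, Serpinb9, Ear, haemoglobins, H2 genes) are uncertain.

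Genes with at least 1 TPM in at least 3 of the 15 libraries were tested on log2(TPM + 1), that is with a pseudocount of 1, which understates differences of low genes. limma 3.58.1 in R 4.3.3 fitted the 5 lines (10 residual degrees of freedom), with a trend in the prior variance, a procedure tested on simulated data, and the contrast was Renca minus the mean of the 4 lines. P-values were adjusted by Benjamini-Hochberg over all genes tested. They measure the spread between libraries, which may be technical. Tables and promoter searches used Python 3.11.15, and gene coordinates came from GENCODE M21 (mm10).

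The 37 lists held 845 genes, of which 839 were in the table and 706 were tested. The comparison, its lines and the lists were chosen with earlier results of these data known. Named by rule were the 15 largest rises and 10 largest falls among called genes without overlap (predicted genes left out), in each list up to 4 called members with the largest differences and 2 tested members not called with the highest mean TPM, the 10 pan-leukocyte genes and the defining markers of cell types. These further genes were chosen after their values were seen: Adgre1, Aqp1, Aqp2, Bax, Ccr9, Cd274, Cd3e, Cd4, Cd80, Cd8a, Cldn12, Cldn6, Col12a1, Csf1r, Emx2, Eya1, Foxp3, Gata3, Gsta4, Gzmf, Gzmg, H2-Aa, H2-Ea, Hnf4a, Hoxa11, Hoxa6, Hoxb4, Hoxd11, Hspa8, Ifng, Igtp, Irf1, Irgm1, Irx1, Irx3, Krt20, Lcn2, Lrp2, Met, Osr2, Postn, Ptgs1, Sall1, Serpinb9, Siglech, Six2, Slc34a1, Tagln, Tap1, Tcf4, Trp53, Umod, Wt1 and Xcr1. Alternatives covered the pseudocount, the filter, scaling, the fold threshold, the lines and libraries included, their weights, a leukocyte covariate and a replicate block. Some genes of the lists are counted but not reported here by name.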

Additional observations from a re-analysis of the deposited data

How the results depend on the processing

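The 2049 higher and 2523 lower genes became 4269 and 6737 without a fold threshold, and 1671 were lower with the mean of the 10 pan-leukocyte genes as a covariate. Leaving out 1 library at a time gave 2033 to 2116 higher genes, and 2058 (without Renca replicate 1) to 2877 (without Renca replicate 3) lower genes. Genes above all 12 libraries then numbered 2185 to 2754 and genes below all 12 numbered 2470 to 3030, both highest without Renca replicate 1. Other alternatives left these 4 counts within 1.5 times their value, and the numbers of genes without overlap cannot depend on pseudocount, weights, covariate, block or fold threshold. The higher share of calls, 44.8%, was 51.1% without mitochondrial and haemoglobin genes, 56.8% after median-ratio scaling and 58.6% with the leukocyte covariate.

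With the replicate number as a block, 2049 genes were higher and 2527 lower. Nothing in the labels pairs libraries of equal number, and the data gave no sign of it: over 30 pairs of equal number the median correlation of deviations was -0.0597 (-0.384 to 0.355, 8 pairs over 0.1) beside 0.0451 for other pairs, and 3 of 15 libraries correlated best with their own number. The block changed no list count by over 1.5 times.

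Directions changed in Ptprc and in genes that were not called, and beyond the limit of the covariate given below the cause was not tested. With the leukocyte covariate Ptprc, called lower before, stood at 0.11, and, of genes not called before, Adgre1 was at 0.44, Ccr3 at 0.25, Cd52 at 0.13, Coro1a at 0.19, Fermt3 at 0.24, Ikzf1 at 0.14, Lcp1 at 0.0029, Tap1 at 0.86 and Was at 0.21. Ptprc, Cd52, Coro1a, Fermt3, Ikzf1, Lcp1 and Was are among the 10 genes whose mean is that covariate. With it the differences of the 10 cancel out, so their shift upward as a set was built in. After median-ratio scaling Cd52 was at 0.19, Coro1a at 0.14 and Tap1 at 0.12, and without mitochondrial and haemoglobin genes at 0.094, 0.038 and 0.023. Ccr2 was at -0.11 with CT26 and CT26NYESO1 counted as 1 family, at -0.15 without CT26, -0.069 without CT26NYESO1, -0.018 without CMS5a replicate 3, -0.077 without Renca replicate 2 and -0.14 without Renca replicate 3. Cd274 was at -0.37 without CMS5a, -0.020 without EMT6 replicate 1, -0.061 without CT26 replicate 2, -0.023 without Renca replicate 2 and -0.034 without Renca replicate 3. Without EMT6, Cd52 was at 0.18 and Coro1a at 0.16. Cd52 was at 0.026 without CT26 replicate 3, 0.0089 without CMS5a replicate 1, 0.023 without Renca replicate 2 and 0.093 without Renca replicate 3, and Coro1a at 0.093 without Renca replicate 2. Among other genes, the covariate took Cd274 (1.58), Ciita (2.04), Csf1r (1.26), Col1a1 (1.28) and Kdr (1.12) past the threshold. It ended the calls of Igtp (-0.65), Irgm1 (-0.58), Cd8a (-0.74), Trbc1 (-0.98), Gzmf (-1.55), Gzmg (-0.90), Ccl2 (-0.78) and others. Without Renca replicate 1, Ccr2 was at 0.38, Cd274 at 0.38, Cd52 at -0.20 and Coro1a at -0.29. Read depth is unknown, so no detection limit can be given for values near 0.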

Other observations

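Stress and dissociation genes did not move as one. Of 18 tested, 3 were higher and 7 lower, with a median of -0.65 beside -0.22 over all genes. Hspb1, a small heat shock protein of epithelia, was at 287, 204 and 219 TPM in Renca against 0.209 to 114 TPM in the 12 others (5.50 ± 0.21). Jund, a subunit of the AP-1 factor, was at 673, 367 and 404 TPM against 47.6 to 113 TPM (2.74 ± 0.18), and Atf3, a stress-induced repressor, at 70.1, 75.8 and 86.0 TPM against 4.75 to 57.02 TPM (2.63 ± 0.20). Egr1, an immediate early gene, was lower, at 12.4, 14.8 and 15.7 TPM against 44.8 to 181 TPM (-2.49 ± 0.14). Hspa8, the constitutive chaperone, was at 571, 511 and 562 TPM against 1268 to 1831 TPM (-1.49 ± 0.09). All 5 genes were without overlap between Renca and the other lines.

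Chemokines outside the interferon-gamma list gave 0 higher and 4 lower of 17 tested (median -0.56): Cxcl5, which attracts neutrophils (-2.17 ± 0.23), Cx3cl1 (-1.22 ± 0.20), Ccl2, which attracts monocytes (-1.11 ± 0.20), and Ccl4 (-1.10 ± 0.25). Each of the 4 overlapped the other lines, and without EMT6 Cx3cl1 (-0.48) and Ccl4 (-0.60) were no longer called, without CMS5a Cx3cl1 (-0.54), and without CT26 Ccl2 (-0.91). Areg, an EGF receptor ligand in the list of type 2 cytokines, was at 0.211, 0.200 and 0.264 TPM against 0.129 to 61.7 TPM (-2.72 ± 0.20). Of 23 pattern recognition genes 5 were higher and 3 lower, beside 12.5% and 15.4% of all genes. Without EMT6 none was lower, and without Renca replicate 1 1 was. Tlr5, the flagellin receptor, was at 6.42, 12.5 and 12.5 TPM against 0.235 to 5.26 TPM (2.29 ± 0.20). Of 6 red cell genes, Slc4a1, the anion exchanger that intercalated cells of the collecting duct also carry, was higher (1.24 ± 0.20), and Alas2 (-1.66 ± 0.32) and Hbb-bt (-1.08 ± 0.36, and -0.64 without CMS5a) were lower.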
